A study of Mus musculus with 38 samples.

Results

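The cells described here are the endothelial cells that formed when mouse embryonic fibroblasts (MEFs) carrying the reprogramming factors Jdp2, Glis1, Esrrb and Sall4 (JGES) were cultured with BMP4. They were taken as all cells of the BMP4+ scRNA-seq sample that carry the deposited annotation for endothelial cells, which gave 1453 of 11335 BMP4+ cells and 1453 of the 20020 cells of both scRNA-seq samples. They are compared with the 3 other annotations of the same sample, namely 7125 cells of the intermediate state, 2372 primitive endoderm cell-like cells (PrECLCs, read from the deposited label ParE) and 385 placenta-like cells, and with 507 endothelial cells of the BMP4- sample. Both samples came from E13.5 MEFs of a cross of OG2 and 129S4/SvJaeJ mice, which received the 4 factors by retrovirus and were kept in iCD3 medium for 7 days. BMP4 at 10 ng/ml was present in the BMP4+ culture only. Each condition is 1 sample, so no test between conditions was possible, no p-value is given, and the intervals cover counting error alone. Since the cells were named from the same counts, every difference between annotations is a description, and a gene is called higher or lower when its level differs by at least 2-fold.

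Endothelial cells line blood and lymph vessels. VE-cadherin (Cdh5), PECAM1 and claudin-5 hold neighbouring cells together, and the receptor KDR receives VEGF signals. TIE1 takes part in angiopoietin signalling, and CD34 is a surface sialomucin shared with blood progenitors. In the embryo endothelial cells and the first blood cells arise close together in the extra-embryonic mesoderm under ETV2, TAL1 and other factors, and BMP4 is one of the signals known to act there. Many endothelial promoters and enhancers are bound by ETS family factors such as ERG, FLI1 and ETS1, whose binding sites share a short core.

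The promoters of the endothelial markers are shown because the markers were high together and ETS factors were high beside them. Sequences of the 250 bases before the transcription start were at hand for 4 of the 6 markers and are written 5' to 3' on the strand of the gene. They are from RefSeq (GRCm38.p6, the assembly also called mm10), and the promoters of Cdh5 and Pecam1 were not examined. Capitals mark each match of GGAAG on either strand, so that a match on the other strand is seen as its reverse complement. Kdr is shown for chr5:75978456-75978705 (minus strand), Cd34 for chr1:194938571-194938820 (plus strand), Cldn5 for chr16:18776597-18776846 (plus strand) and Tie1 for chr4:118489850-118490099 (minus strand). GENCODE, another annotation, lets the Tie1 gene begin at 118490061. Most of the Tie1 window thus lies before the RefSeq start but within the GENCODE gene.
Kdr: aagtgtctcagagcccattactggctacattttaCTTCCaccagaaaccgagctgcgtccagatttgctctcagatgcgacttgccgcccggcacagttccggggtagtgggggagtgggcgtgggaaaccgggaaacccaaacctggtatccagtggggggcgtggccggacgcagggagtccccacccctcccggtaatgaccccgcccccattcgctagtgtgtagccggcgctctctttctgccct
Cd34: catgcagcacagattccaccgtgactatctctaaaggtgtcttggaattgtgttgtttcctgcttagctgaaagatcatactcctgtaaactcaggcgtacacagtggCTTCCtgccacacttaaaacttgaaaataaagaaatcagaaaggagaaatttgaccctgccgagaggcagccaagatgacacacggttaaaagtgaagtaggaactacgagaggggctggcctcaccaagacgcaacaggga
Cldn5: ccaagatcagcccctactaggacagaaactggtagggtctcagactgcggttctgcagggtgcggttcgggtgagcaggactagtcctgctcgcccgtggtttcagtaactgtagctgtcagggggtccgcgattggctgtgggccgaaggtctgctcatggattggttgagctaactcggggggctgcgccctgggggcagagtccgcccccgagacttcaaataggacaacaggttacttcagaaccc
Tie1: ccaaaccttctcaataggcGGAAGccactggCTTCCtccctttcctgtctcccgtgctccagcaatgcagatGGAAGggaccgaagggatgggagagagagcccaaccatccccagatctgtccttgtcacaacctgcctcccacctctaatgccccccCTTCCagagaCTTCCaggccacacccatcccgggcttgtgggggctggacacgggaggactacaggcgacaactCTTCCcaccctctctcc
Tie1 had 6 matches of GGAAG, Kdr and Cd34 had 1 each, and Cldn5 had 0 in this window. Only this form of the ETS core was searched, so sites with another form are neither marked nor counted. At least 1 match was present in 64.1% of 32851 mouse promoters of the same length, so holding one is common. A core of GATA factors, GATAA, was searched in the same way and occurs in 22.6% of the promoters, but in none of these 4. The letters ACAAT, a core of SOX factors, occur in 27.7% of the promoters and had 1 match, in Cd34.

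Endothelial cells made up 12.8% of the BMP4+ cells (95% exact binomial interval 12.2 to 13.4%). In the BMP4- sample 507 of 8685 cells, 5.84% (5.35 to 6.35%), carried the same annotation. Both intervals cover counting error alone, and the spread between cultures was not measured. The BMP4+ endothelial cells had a median of 21763 UMIs and 4407 genes per cell, against 15083 UMIs and 3016 genes in the BMP4- endothelial cells. Among the other BMP4+ annotations the medians were 19594 UMIs in intermediate cells, 23772.5 in PrECLCs and 28906 in placenta-like cells. Levels below are CPM, the UMIs of a gene summed over all cells of an annotation and scaled to the same total, and 34935176 UMIs stand behind the endothelial values.

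All 6 defining markers were at least 17.6-fold higher in these cells than in any other annotation of the sample. Since the cells were named from the same counts, these levels describe the annotation and do not test it. Cdh5 was at 179 CPM in endothelial cells (95% exact Poisson interval 175 to 184), against 3.04 in intermediate cells, 9.75 in PrECLCs and 3.79 in placenta-like cells. Kdr, the main VEGF receptor, was at 203 CPM against 3.58, 3.87 and 2.10, and Pecam1 at 103 CPM against 2.17, 5.08 and 2.69. Cd34 was at 152 CPM against 1.50, 1.63 and 0.421. Cldn5, the tight junction claudin of vessels, had the highest level of the 6 with 328 CPM against 8.43, 5.50 and 1.60. Tie1 was the lowest with 47.0 CPM against 0.770, 2.67 and 0.589, and even its interval (44.8 to 49.4) lay far above the other annotations. Over the other BMP4+ cells pooled the folds ran from 34.7 for Pecam1 to 103 for Cd34, and the median log2 fold of the 6 markers was 5.35, against -0.08 over all genes measured. Cdh5 lies on chromosome 8 at 104101625 to 104144511 (plus strand) and Pecam1 on chromosome 11 at 106654217 to 106750628 (minus strand) of the same assembly, both as protein-coding genes.

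**Figure D1:**
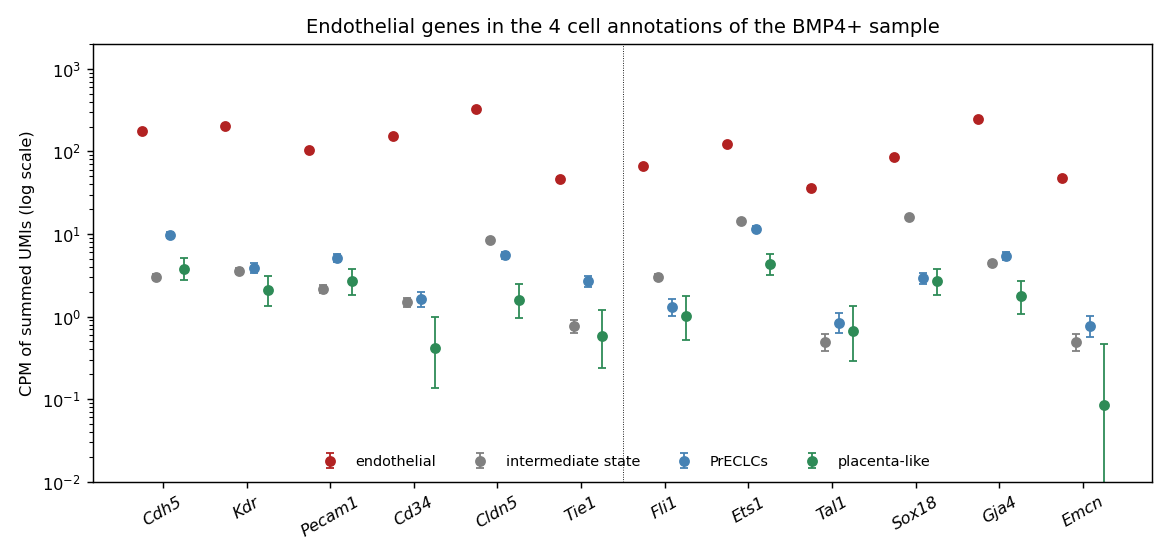
CPM of summed UMIs (log axis) of the 6 markers, left of the dotted line, and 6 further endothelial genes in the 4 annotations of the BMP4+ sample, with bars for the 95% exact Poisson interval (for Emcn in placenta-like cells, with 1 UMI, the bar runs below the axis). Endothelial cells lie above the other annotations for each gene, with Cldn5 at 328 CPM against 8.43 CPM or less elsewhere.

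Not every annotated cell carried these transcripts. At a depth made equal by thinning each cell to 4000 UMIs, Cdh5 was detected in 43.0% of the endothelial cells, against 0.842% of intermediate cells, 3.04% of PrECLCs and 1.30% of placenta-like cells, which should lack it. At full depth these shares were 76.9%, 4.06%, 11.3% and 7.79%. Cldn5 was detected in 48.3% of the thinned endothelial cells, Kdr in 42.9%, Cd34 in 35.7%, Pecam1 in 29.5% and Tie1 in 16.7%. At least 3 of the 6 markers were detected in 613 thinned cells (42.2%, 39.6 to 44.8%), and none in 361 (24.8%). At full depth the same counts were 1064 cells (73.2%) and 144 cells (9.91%). In the other annotations of the sample at least 3 markers were found in 0.154% of thinned intermediate cells, 0.379% of PrECLCs and 0 of 385 placenta-like cells (upper exact binomial bound 0.954%). Most of the cells thus carried several markers at full depth, whereas a minority had few or none, and these are described by group further on.

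Of 10872 genes with at least 5 CPM in any BMP4+ annotation, 319 (2.93%) were at least 2-fold higher in endothelial cells than in each of the other annotations and 301 (2.77%) were at least 2-fold lower. Against the other cells pooled 549 genes (5.05%) were higher and 1836 (16.9%) lower. Under CPM the median gene differed by 0.01 on the log2 scale from intermediate cells, by -0.11 from PrECLCs and by -0.18 from placenta-like cells. The counts for gene lists below are read against these shares.

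Endothelial transcription factors were the first group examined. Of 23 measured members 11 were higher than in each other annotation and 0 lower. The ETS factors Ets1, Fli1, Erg and Etv2 were among them. Ets1 was at 122 CPM against 14.3, 11.6 and 4.29 (in the order intermediate, PrECLCs, placenta-like), Fli1 at 66.6 CPM against 3.02, 1.30 and 1.01, and Erg at 10.4 CPM against 0.143, 0.293 and 0. Etv2, which starts the endothelial and blood programme in mesoderm and is switched off as vessels mature, was at only 13.3 CPM and was detected in 158 of the cells at full depth. Of its UMIs 46.4% lay in 10 cells. Sox18 (85.1 CPM) and Sox7 (78.6 CPM), SOX factors of early vessels, were 5.31-fold and 3.61-fold above the next annotation. Their relative Sox17 was at 37.3 CPM here and at 263 CPM in PrECLCs, where it is an endoderm factor. Tal1 and Lmo2, which act together at the branch of blood and endothelium, were at 35.7 and 91.8 CPM, against at most 0.846 and 22.0 CPM elsewhere. Hhex, Hey2 and Tcf15 completed the 11. Foxc1, Foxc2, Klf4 and Nr2f2 were lower than in the other cells together, and Klf2, a factor that responds to blood flow, was at 9.07 CPM against 9.39 in intermediate cells. Meox2 did not reach 5 CPM in any annotation.

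Among 18 measured vascular receptors 13 were higher than in each other annotation and 0 lower. Ramp2, which pairs with the receptor CALCRL to bind adrenomedullin, had the highest level with 319 CPM against 71.4 CPM in PrECLCs, the next annotation. Eng, a co-receptor for BMP9 and TGF-beta, was at 105 CPM, and its signalling partner Acvrl1 at 28.5 CPM. The VEGF receptors were not alike. Kdr and Flt4 (33.0 CPM) were higher than in each other annotation, but Flt1, a decoy receptor for VEGF, was at 60.4 CPM against 247 CPM in PrECLCs. The guidance co-receptor Nrp1 was at 90.2 CPM, 2.72-fold above PrECLCs, whereas Nrp2 was at 114 CPM against 169 CPM in intermediate cells. Unc5b, a netrin receptor of sprouting vessels, was lower than in the other cells together (54.9 CPM, with 174 CPM in intermediate cells).

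Genes of cell junctions and the cell surface gave the largest count of the lists, though not the largest share. Of 20 measured members 14 were higher than in each other annotation. Beside Cdh5, Pecam1, Cldn5 and Cd34 these included Egfl7 (321 CPM), a secreted factor that guides vessel tube formation, and Gja4 (249 CPM), which encodes the gap junction protein connexin 37 of arteries. Gja4 was 45.8-fold above PrECLCs. Ecscr was at 135 CPM, Esam at 109 CPM and Plvap, which forms the diaphragms of leaky capillaries, at 70.6 CPM. Cd93 (27.8 CPM) and the sialomucin Emcn (47.7 CPM) were at or below 0.293 and 0.765 CPM elsewhere. The junction genes F11r, Jam3 and Mcam, which many epithelia and stromal cells also use, differed by less than 2-fold from at least 1 other annotation, and Jam2 was at 1.52 CPM against 20.3 CPM in intermediate cells.

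Genes of vessel subtypes were mixed. Of 11 measured arterial genes 6 were higher than in each other annotation (Efnb2, Jag2, Notch1, Notch4, Hey2 and Gja4), and of 10 venous and lymphatic genes 6 were higher (Ephb4, Aplnr, Flt4, Lyve1, Stab1 and Emcn) and 1, Pdpn, was lower. Both members of the ephrin pair that separates arteries from veins were present, with the arterial ligand Efnb2 at 54.9 CPM and the venous receptor Ephb4 at 38.1 CPM. The venous and lymphatic factors were low, and the arterial genes differed. Nr2f2, the venous factor, was at 5.72 CPM against 16.7 CPM in intermediate cells, Prox1, the lymphatic factor, at 3.49 CPM against 9.16 CPM in PrECLCs, and the arterial gap junction gene Gja5 at 1.00 CPM. The arterial factor Hey2 was at 8.67 CPM, and Sox17 at 37.3 CPM against 263 CPM in PrECLCs. Of 8 measured genes of sprouting tip cells only Esm1 was higher, at 6.04 CPM in 61 cells. Another 4 (Angpt2, Igfbp3, Plaur and Unc5b) were lower than in the other BMP4+ cells together, against 16.9% of all genes.

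The Notch pathway, which sets arterial fate and limits sprouting, had 6 of 13 measured genes higher and 0 lower. The receptors Notch1 (46.5 CPM) and Notch4 (7.70 CPM), the ligand Jag2 (25.8 CPM), the feedback gene Nrarp (19.7 CPM), the receptor-modifying enzyme Mfng (9.30 CPM) and the target Hey2 (8.67 CPM) were the members. The ligand Dll4 was at 12.9 CPM against 9.63 CPM in intermediate cells, and Hes1 was at 40.4 CPM against 74.0 CPM there.

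Secreted factors were higher in only a few cases. Of 13 measured vascular growth factors 3 were higher, namely Pdgfb (73.7 CPM), which recruits mural cells, Bmp2 (65.5 CPM) and Bmp6 (13.9 CPM). Vegfa was at 47.5 CPM, within 2-fold of each other annotation, which ranged from 42.1 to 64.4 CPM. Edn1, encoding endothelin, was at 16.5 CPM against 70.8 CPM in intermediate cells, and the endogenous Bmp4 transcript at 10.8 CPM against 71.5 CPM there. Of 12 basement membrane genes only Sparcl1 and Mmrn2 were higher. The collagens of the vessel basement membrane were abundant (Col4a1 at 626 CPM and Col4a2 at 316 CPM) but exceeded in PrECLCs (1171 and 506 CPM). Nos3, the endothelial nitric oxide synthase, and Ece1, the endothelin-converting enzyme, were the 2 higher members of 9 measured genes of coagulation and vessel tone, and Vwf, von Willebrand factor, stayed at 4.12 CPM. Among 8 lipid uptake genes Gpihbp1, the capillary anchor of lipoprotein lipase, and Tcf15 were higher, and Lpl was lower.

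**Figure D2:**
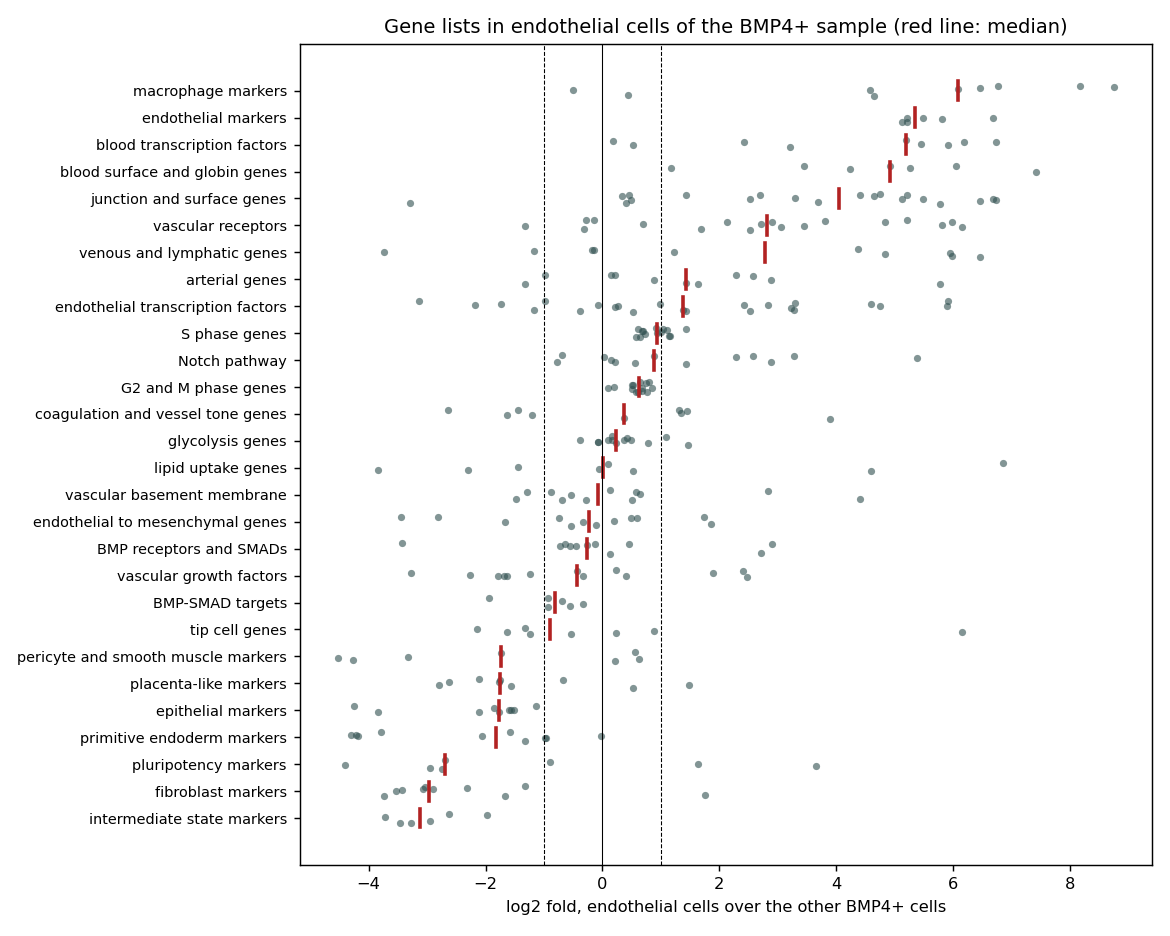
Each point is a measured gene of the list on the vertical axis, placed at its log2 fold in endothelial cells over the other BMP4+ cells, with the list's median as a red line and 2-fold as dashed lines. The marker list has a median of 5.35, and the intermediate state markers lie at the lower end with -3.12.

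Genes of other cell types were counted in the same way. All 6 markers of the intermediate state were lower than in the other cells together, as were 9 of 10 fibroblast markers, 9 of 9 epithelial markers and 7 of 10 primitive endoderm markers, against a background of 16.9%. Col1a1 was at 18.5 CPM against 281 CPM in intermediate cells, and Gata4 at 1.20 CPM against 78.3 CPM in PrECLCs. The exception among fibroblast markers was Fbn1 (fibrillin, 35.5 CPM, 2.49-fold above PrECLCs). Of 7 pericyte and smooth muscle markers 0 were higher and 2, Acta2 and Cnn1, were lower than in each other annotation. Of 12 genes linked to a change from endothelium to mesenchyme 2 were higher, Tgfbr2 and Fn1, and the mesenchymal factor Snai2 was at 5.90 CPM against 56.6 CPM in intermediate cells. Fn1 (fibronectin) at 1342 CPM was 2.88-fold above intermediate cells.

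Blood genes were the main exception. Of 9 measured blood transcription factors 7 were higher than in each other annotation (Tal1, Lmo2, Gata1, Gfi1b, Myb, Spi1 and Nfe2), as were 6 of 7 blood surface and globin genes and 7 of 9 macrophage markers. Spi1, the PU.1 factor of myeloid cells, was at 43.4 CPM and Gfi1b, which represses the endothelial programme as blood forms, at 27.6 CPM, both at or below 1.85 CPM elsewhere. The embryonic globins Hba-x (38.9 CPM), Hbb-bh1 (24.2 CPM) and Hbb-y (8.64 CPM) were present, and of the adult globins Hba-a1 was at 17.8 CPM and Hbb-bs and Hbb-bt at 0.458 and 0.515 CPM. Reads of Hba-a1 and its near-identical copy Hba-a2 may be split in the counts. The globin UMIs lay in few cells. Hbb-bh1 was detected in 97 of the 1453 cells, Hba-a1 in 70 and Hba-x in 65, and 10 cells held 53.8%, 60.0% and 68.8% of their UMIs. Runx1, needed for blood stem cells to emerge from endothelium, was at 62.6 CPM but differed little from the other annotations, at 51.9 to 60.4 CPM.

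The genes ranked by their smallest fold over the other annotations drew on both kinds. Among the first 20 (with at least 20 CPM in endothelial cells) were the endothelial genes Cd93, Cd34, Emcn, Kdr, Gja4, Adgrl4, Aplnr and Cldn5, the blood and endothelial factors Tal1 and Lyl1, the blood genes Csf2rb, Hbb-bh1 and Hba-x, and the myeloid genes Cd209f, Cd209g, Tyrobp and Lyz2. Abi3 (28.1 CPM), Gimap1 (22.0 CPM) and Cpa1 (46.9 CPM), a pancreatic carboxypeptidase, completed them. Cpa1 was detected in 447 cells, against 569 for Abi3 and 391 for Gimap1. Cd209f and Cd209g (56.1 CPM) differed in this respect, with UMIs in only 9 and 12 cells, and 10 cells held 99.0% of the Lyz2 UMIs. At the other end the 10 genes with the largest deficit were Msx2, Me1, Plac8, Ldoc1, Gsn, Pmepa1, Cystm1, Loxl2, Rbm47 and Ptprf. Msx2, a homeobox target of BMP signals, was at 11.5 CPM and 4.72-fold below PrECLCs, the lowest of the others. Gsn, the actin-severing gelsolin, was at 10.2 CPM and 3.72-fold below, and Loxl2, a collagen cross-linking enzyme, at 8.84 CPM and 3.13-fold below.

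Most UMIs of several myeloid genes lay in a small set of cells. At a finer clustering (Leiden resolution 0.8) 43 cells (2.96% of the endothelial cells, 2.68% of their UMIs) formed a group led by Cd209g, C1qa, Cd209f and Lyz2. They held 97.4% of the Lyz2 UMIs, 93.2% of the C1qb UMIs, 67.9% of the Tyrobp UMIs and 99.4% of the Cd209g UMIs, but 16.8% of Laptm5 and 21.7% of Spi1. They also held 84.2% of the UMIs of Cd52, one of the 6 blood surface and globin genes counted above, which was at 1.94 CPM without them. Their share of Cdh5 UMIs was 2.11%, close to their share of all UMIs, and 37.2% of them had at least 3 endothelial markers. Without these cells Lyz2 was at 1.26 CPM and C1qb at 0.853 CPM, Spi1 was still at 34.9 CPM, and 304 genes were higher and 305 lower than in each other annotation.

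Cell cycle genes of S phase were higher in endothelial cells than in the other BMP4+ cells together for 6 of 14 members, and for 0 of 14 members of the G2 and M phase list. No member of either list was 2-fold above each other annotation. Mcm3, a subunit of the replicative helicase, was at 178 CPM against 41.2 CPM in intermediate cells and 123 CPM in PrECLCs. Glycolysis genes, which endothelial cells rely on, were close to the rest except Pgk1 (1299 CPM against 605 to 615 CPM) and the glucose transporter Slc2a1 (252 CPM, against 48.3 CPM in intermediate cells and 399 CPM in placenta-like cells). The reprogramming factors, whose UMIs may come from the retrovirus or the mouse gene, were at 68.0 CPM for Jdp2, 32.8 CPM for Sall4, 21.7 CPM for Esrrb and 0.487 CPM for Glis1.

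The endothelial cells differed among themselves. Clustering of these 1453 cells alone (Leiden resolution 0.5) gave 6 groups, numbered here by falling Cdh5. Since the groups were made from the same counts, their genes describe them and are no test. Group 1 with 307 cells (21.1%) was led by Lyve1, Cyp1a1, Sparcl1 and Emcn. Lyve1 was detected in only 94 endothelial cells, so it does not describe most cells of the group. Group 1 had Cdh5 at 423 CPM, Kdr at 463 CPM, Cldn5 at 941 CPM and Notch1 at 143 CPM. At the thinned depth 90.6% of its cells had at least 3 markers. It held the highest summed level of arterial genes (1328 CPM) and also of venous and lymphatic genes (721 CPM). Its Runx1 was at 7.29 CPM and its Gfi1b at 0.678 CPM, the lowest of all groups.

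Groups 2 and 3 had Cdh5 above 200 CPM, with other leading genes. Group 2 with 161 cells (11.1%) was led by the mitotic genes Aspm and Aurkb, had Cdh5 at 239 CPM and a summed level of G2 and M phase genes of 2704 CPM. Group 3 with 243 cells (16.7%) was led by the myeloid genes Cd209g, Cd209f, Lyz2, Fcer1g and C1qb, with no endothelial gene among its first 10, and all 9 measured macrophage markers had their highest level there. These 5 leading genes were carried by few cells, from 9 endothelial cells with a UMI of Cd209f to 57 with one of Fcer1g, so they do not describe most cells of the group. Its Cdh5 was at 214 CPM, 53.9% of its cells had at least 3 markers, and its Spi1 was at 88.4 CPM.

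In the other 3 groups endothelial transcripts were fewer. Group 4 with 228 cells (15.7%) was led by Wnt10a, Dcpp1 and Col1a1, genes of the intermediate state, with Cdh5 at 114 CPM and Col1a1 at 76.8 CPM. Among all annotated endothelial cells, Col1a1 was detected in 174 and Wnt10a in 159, and 10 cells held 55.3% and 30.8% of their UMIs. The level of Col1a1 thus rests largely on few cells. The cells of group 4 had a median of 25811.5 UMIs and a median Scrublet doublet score of 0.0786, against 0.0124 in group 1. Group 5 with 305 cells (21.0%) was led by Hbb-bh1, Gfi1b and Hba-x. Since the globins were seen in few cells (97 endothelial cells with a UMI of Hbb-bh1 and 65 with one of Hba-x), they do not describe most cells of the group. Its Runx1 was at 123 CPM and Gfi1b at 77.1 CPM, while Cdh5 was at 83.0 CPM and 10.2% of its cells had at least 3 markers. Group 6 with 209 cells (14.4%) was led by Rhox9, Krt14, Notum and Pitx1, with Krt8 at 212 CPM, Krt18 at 543 CPM and Epcam at 103 CPM. Its Cdh5 was at 34.9 CPM and Kdr at 23.6 CPM, 6 of its cells (2.87%) had at least 3 markers, and 146 had none. The part of doublets in groups 4 and 6 was not tested.

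**Figure D3:**
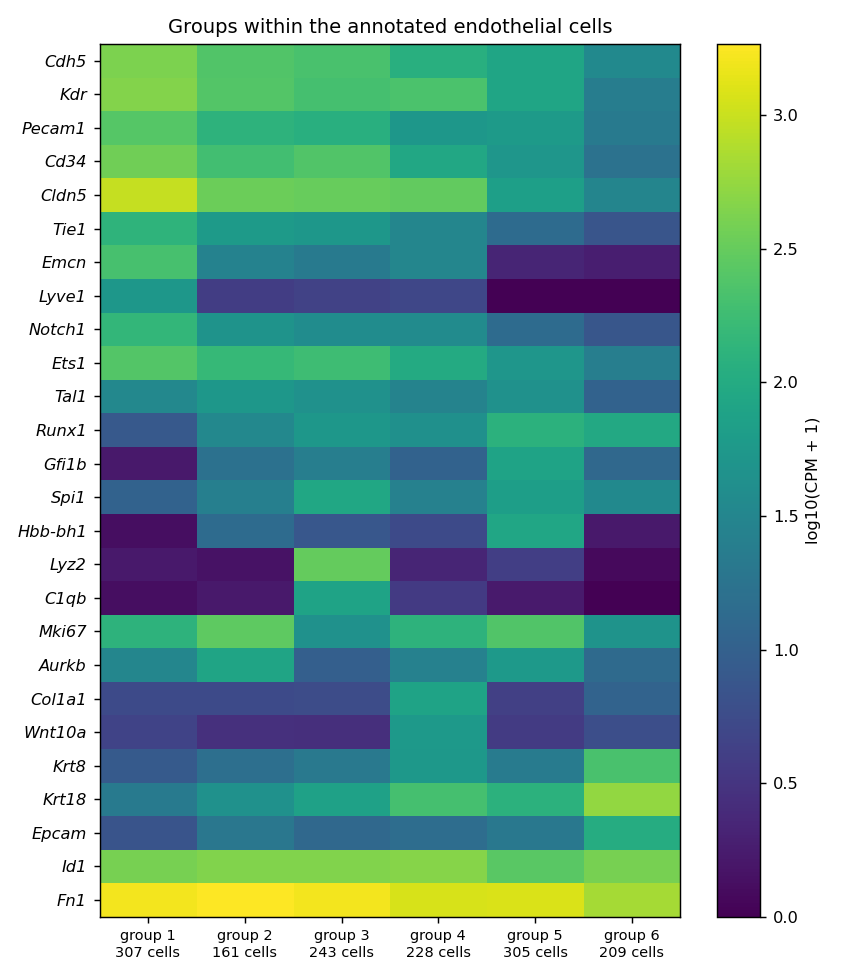
Rows are genes and columns the 6 groups of annotated endothelial cells, with colour for log10(CPM + 1). Cdh5 runs from 423 CPM in group 1 to 34.9 CPM in group 6, Gfi1b peaks in group 5 and Krt8 in group 6.

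The same annotation was next compared between the BMP4+ and BMP4- samples, which asks how the cells that carry this label differed with BMP4. The BMP4- endothelial cells were not grouped here, so a change in the mix of the unlike groups above and a change within a group cannot be told apart. Each condition is 1 library, so library and condition cannot be told apart either. Of 9554 genes with at least 5 CPM in either, 2384 (25.0%) were at least 2-fold higher with BMP4 and 435 (4.55%) lower. This split of 84.6% higher rests on scaling, since it was 57.7% when mitochondrial and ribosomal protein genes were left out of the totals and 44.4% under median ratio scaling. The median gene was higher by 0.50 on the log2 scale in endothelial cells and by 0.51 in intermediate cells of the same libraries. Changes are therefore given relative to that median, and on this basis 919 genes (9.62%) were higher and 1022 (10.7%) lower. Intermediate cells are set beside them as a second reading of the same 2 libraries.

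BMP-SMAD targets are the genes that BMP receptors switch on most directly. Relative to the median 4 of 6 were higher and 0 lower, with a median difference of 2.04 on the log2 scale. Id1, an inhibitor of differentiation factors, had a BMP4+ level of 392 CPM and a BMP4- level of 41.1 CPM, and Id3 at 543 and 105 CPM. The inhibitory SMADs that feed back on the pathway showed the same order, with Smad7 at 75.3 and 10.6 CPM and Smad6 at 25.5 and 3.92 CPM. Bambi, a decoy receptor, was nearly level at 150.3 and 129.9 CPM. In intermediate cells of the same libraries the list's median was 1.51, with another order of members. Bambi was at 385 and 73.1 CPM there (1.89 relative to the median, against -0.29 in endothelial cells), Smad7 at 134 and 15.2 CPM, Id1 at 629 and 202 CPM (1.13) and Id3 at 789 and 446 CPM (0.31). Despite the difference between samples, none of the 6 targets was higher in BMP4+ endothelial cells than in each other BMP4+ annotation, and Id2 was lower (61.8 CPM against 132 to 246 CPM).

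Among the endothelial markers 3 of 6 were higher with BMP4 relative to the median and 0 lower. The BMP4+ level of Cdh5 was 179 CPM and the BMP4- level 55.5 CPM (interval 50.5 to 60.7), Pecam1 at 103 and 31.8 CPM, and Cd34 at 152 and 38.1 CPM. Tie1 was at 47.0 CPM with BMP4, 2.77-fold above its BMP4- level, a difference of 0.97 relative to the median. Kdr (203 and 141 CPM) and Cldn5 (328 and 271 CPM) followed the median gene or lay below it, at 0.02 and -0.23. The list's median was 1.08 in endothelial cells and 0.12 in intermediate cells. The marker pattern per cell differed too, with at least 3 markers in 42.2% of thinned BMP4+ cells and in 13.2% (10.4 to 16.5%) of thinned BMP4- cells.

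Other endothelial genes were split. Of 19 junction and surface genes measured here 7 were higher and 0 lower relative to the median, and 11 and 0 without that centring. Emcn was among the 7, at 47.7 and 8.91 CPM. Of 21 transcription factors 3 were higher and 5 lower relative to the median, but 7 higher and 1 lower without that centring, so the balance of this list turns with the scaling. Ets1 had a BMP4+ level of 122 CPM and a BMP4- level of 19.8 CPM, and Erg had 364 UMIs with BMP4 (10.4 CPM) and 2 without (0.238 CPM). Etv2 was in contrast at 13.3 and 59.9 CPM, and Lmo2 at 91.8 and 182 CPM. With BMP4, 10 cells held 46.4% of the Etv2 UMIs. Bmp2 was at 65.5 and 6.65 CPM and the endogenous Bmp4 transcript at 10.8 and 55.6 CPM. The collagen gene Col4a1 was at 626 and 128 CPM, and in intermediate cells at 182 and 48.9 CPM. Of 14 S phase genes 5 were higher and 0 lower relative to the median, and 10 and 0 without that centring. The list median relative to the median gene was 0.76 in endothelial cells and -0.78 in intermediate cells, and Mcm4 was at 112 and 24.8 CPM.

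Blood surface and globin genes were mostly lower with BMP4, while the count for blood transcription factors depended on the scaling. Of 8 measured blood surface and globin genes 6 were lower and 0 higher, both relative to the median and without that centring, and the list median relative to the median gene was -2.48 (-0.92 in intermediate cells). Hba-a1 had a BMP4+ level of 17.8 CPM and a BMP4- level of 352 CPM, Hbb-bh1 at 24.2 and 186 CPM, and Hba-x at 38.9 and 83.1 CPM. With BMP4 these 3 globins rest on the few cells described above. In bulk JGES cells on day 7 Hba-a1 was at 0 FPKM with BMP4 and 16.4 FPKM without, whereas Hba-x and Hbb-bh1 were at 1.17 and 1.15 FPKM with it and listed at 0 without. Of 10 blood transcription factors 6 were lower and 1 higher relative to the median, and 3 lower and 2 higher without that centring. The list median relative to the median gene was -1.18 in both cell types, and Gfi1b was at 27.6 and 61.2 CPM. Runx1 went against them at 62.6 and 17.3 CPM. Macrophage markers had a list median of 1.49, with 5 of 8 higher and 1 lower, but in the BMP4+ sample the 43 cells described above held between 16.8% (Laptm5) and 98.8% (C1qa) of the UMIs of these markers. Of 9 pluripotency markers 5 were lower and 2 higher, with Sox2 at 1.37 and 28.7 CPM and Dppa5a at 0.372 and 253 CPM. The BMP4- sample contains 1825 pluripotent cells with Dppa5a at 6305 CPM, and BMP4- intermediate cells had 261 CPM. What part RNA from those cells has in these values was not tested.

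**Figure D4:**
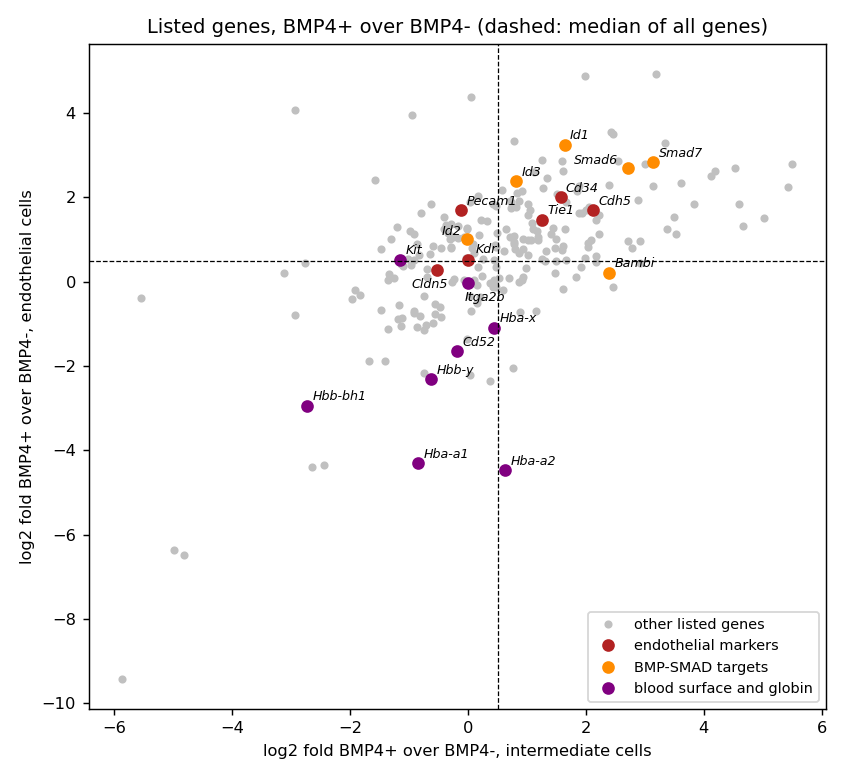
Each point is a gene of the fixed lists at its log2 fold BMP4+ over BMP4- in intermediate cells (horizontal) and endothelial cells (vertical), with dashed lines at the median of all genes. The BMP-SMAD targets except Bambi lie above the median in endothelial cells, and the globins lie below it.

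The genes with the largest differences included several that also stood apart in intermediate cells of the same libraries. Leaving out mitochondrial, ribosomal protein and predicted genes, the 10 largest in favour of BMP4 were Atp6v0c, Cd209g, Pitx1, Gpnmb, Cd209f, Ints5, Iapp, Spink8, Apcdd1 and Dcaf12l1. Some of these rest on few cells. Beside Cd209f and Cd209g, 10 cells held 88.5% of the Gpnmb UMIs and 55.9% of the Iapp UMIs, and without the 43 cells led by macrophage genes Gpnmb was at 7.29 CPM. Atp6v0c, a proton pump subunit, was at 631 and 3.09 CPM in endothelial cells and at 949.9 and 2.06 CPM in intermediate cells. Ints5 was at 24.0 CPM with BMP4 and had 0 UMIs in the BMP4- endothelial and intermediate cells. Apcdd1, a Wnt and BMP inhibitor, was at 84.1 and 1.54 CPM in endothelial cells and 29.5 and 0.625 CPM in intermediate cells. Dcaf12l1 (51.5 and 1.07 CPM) differed less in intermediate cells (12.5 and 2.01 CPM). Iapp and Spink8 were at 1699.8 and 388 CPM in BMP4+ intermediate cells, far above their 46.7 and 32.9 CPM in endothelial cells.

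With the same genes left out, the 10 largest in the other direction were AY036118, Rpl27-ps3, Dppa5a, Sssca1, Hdhd2, Rpl7a-ps5, Ptp4a1, Rbm42, C1ql2 and Fam220a. AY036118, Rpl27-ps3 and Hdhd2 had 0 UMIs in all 4 BMP4+ annotations, and at the floor of 3 UMIs over the BMP4+ endothelial cells they were at least 2214-fold, 1026-fold and 266-fold lower. The names Hdhd2, Sssca1, Ptp4a1 and Fam220a each belong to overlapping gene entries of the same name. What part the counting of such names has in their values was not tested. AY036118 was at 190.1 CPM in BMP4- endothelial cells and 189 CPM in BMP4- intermediate cells. C1ql2 was at 36.3 CPM in BMP4- endothelial cells and 10.4 CPM in BMP4- intermediate cells, and at 0.544 and 5.83 CPM in the BMP4+ cells. The mitochondrial transcript mt-Co3 had 37.7 CPM where BMP4 was present and 8749.6 CPM where it was absent, and it was at 54.2 and 10389 CPM in intermediate cells. Relative to the median, 52 of 92 ribosomal protein genes were lower and 1 higher, 42 of 81 predicted genes or pseudogenes lower and 8 higher, and 7 of 13 mitochondrial genes lower and 2 higher, against 10.7% and 9.62% of all genes. Of 48 histone genes 25 were higher and 4 lower. Without that centring the counts were 21 and 2, 34 and 12, 6 and 5, and for histone genes 27 and 4, against 4.55% of all genes lower and 25.0% higher.

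Bulk RNA-seq gave a reading of the markers in libraries that the naming of cells did not use. The deposited values are FPKM with 1 library per day and condition and unknown read depth, and in bulk fewer endothelial cells and less RNA per cell cannot be told apart. In JGES cells without BMP4, Cdh5 was at 0.499 FPKM on day 0, 0.482 on day 1, 0.770 on day 3, 8.26 on day 5 and 4.72 on day 7. With BMP4 it was at 0.693, 1.33, 8.91 and 12.6 FPKM on days 1, 3, 5 and 7. Both series were thus low until day 3 and high from day 5. Cd34 without BMP4 was at 2.69, 0.620, 0, 2.64 and 1.45 FPKM over the 5 days, and with BMP4 at 0.133, 0.409, 5.73 and 12.2 FPKM over the 4. Tie1 was at 1.95 and 1.87 FPKM on days 5 and 7 without BMP4, and at 3.42 and 6.42 FPKM with it.

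The other 3 markers did not separate in this way. Kdr without BMP4 was at 3.68, 5.10, 15.1, 12.3 and 14.0 FPKM and with BMP4 at 7.54, 4.04, 11.4 and 11.7 FPKM. Pecam1 reached 9.87 and 18.9 FPKM on days 5 and 7 without BMP4 but 3.68 and 10.9 FPKM with it. In the single cells without BMP4 Pecam1 was also carried by pluripotent cells (27.4 CPM), the only annotation of that sample besides endothelial cells above 6.35 CPM. What part pluripotent cells have in the bulk values was not tested. Cldn5 was at 22.7, 41.4 and 29.6 FPKM on days 3, 5 and 7 without BMP4 and at 6.30, 23.7 and 31.2 FPKM with it.

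**Figure D5:**
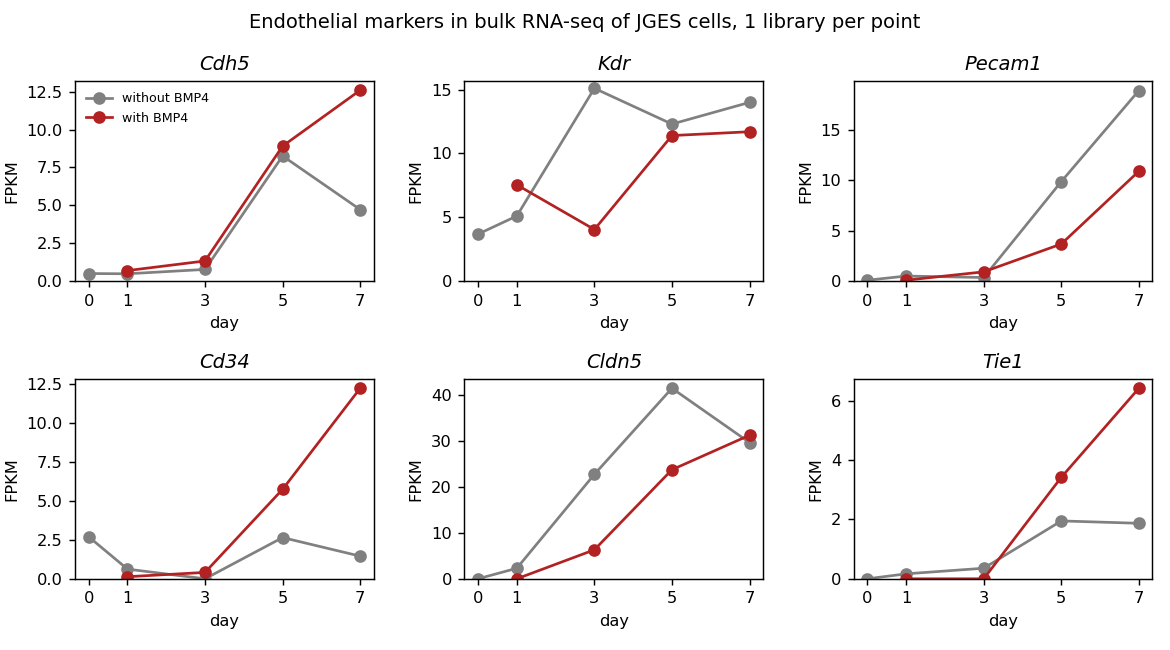
FPKM of the 6 markers by day in bulk RNA-seq of JGES cells, 1 library per point, grey without and red with BMP4. On day 7 Cdh5, Cd34 and Tie1 are higher with BMP4 (12.6 against 4.72 FPKM for Cdh5), and the other 3 differ by less than 2-fold (for Pecam1 10.9 against 18.9 FPKM).

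On day 7 the differences of log2(FPKM + 1), with BMP4 minus without, were 1.25 for Cdh5, 2.43 for Cd34, 1.37 for Tie1, 0.07 for Cldn5, -0.24 for Kdr and -0.74 for Pecam1. Thus 3 of 6 markers were higher and 0 lower, against 10.3% and 13.8% of 15347 genes measured, and the median of 0.66 compares with -0.14 over all genes. Lists of other cell types moved in the same libraries. Of 12 pluripotency markers 11 were lower (median -3.55). All 6 intermediate state, 5 of 10 primitive endoderm and 5 of 12 fibroblast markers were higher, with medians of 2.11, 0.99 and 0.92. The BMP-SMAD targets differed from the first day, with 5 of 6 higher on day 1, against 3.75% of all genes, and Smad6 at 58.0 FPKM with BMP4 against 9.96 FPKM without. No endothelial marker was higher by 2-fold on this log2(FPKM + 1) scale on the earlier days, although Cd34 came close on day 5, at 0.89, and its FPKM without the added 1 (5.73 and 2.64) differ by more than 2-fold. On these days 2, 3 and 6 of the 6 reached 1 FPKM and 1 (Cldn5 on day 1), 2 (Kdr and Cldn5 on day 3) and 1 (Pecam1 on day 5) were lower. Among all genes 3.75%, 6.81% and 8.78% were higher on days 1, 3 and 5, and 5.72%, 8.99% and 13.2% were lower. The endothelial factor Etv2 was at 2.23, 14.0, 2.16 and 6.01 FPKM on days 1, 3, 5 and 7 without BMP4, and at 0.479, 2.69, 5.51 and 1.92 FPKM with it. Of 3 macrophage markers measured on day 7, 1 was higher with BMP4 (Csf1r, 1.76 FPKM and listed at 0 without) and 0 lower, with Laptm5 at 5.10 and 6.73 FPKM, while Lyz2 and C1qb were listed at 0 in the BMP4+ library.

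Other factor sets were measured on day 7 in a separate table. In JGE cells, which were not given Sall4, 5 of 6 markers were higher with BMP4, against 4.28% of all genes, with a median of 1.75. Sall4 itself was at 6.23 FPKM with BMP4 and 2.09 FPKM without in these cells, a difference of 1.23, and at 190.0 and 273 FPKM in JGES cells of the same table. Cdh5 was at 6.77 FPKM with BMP4 and 0.0935 FPKM without, and Cldn5 at 92.6 and 10.9 FPKM. In JGEO cells, which were given Oct4 in place of Sall4, 5 of 6 were higher, against 2.26%, with a median of 1.27. The Sall4 transcript was at 30.3 FPKM with BMP4 and 28.9 FPKM without in JGEO cells. In JGESO cells, which carry all 4 factors of JGES and Oct4, 4 of 6 were higher, against 5.29%, with a median of 1.02. Cdh5 and Tie1 were higher with BMP4 in each of the 4 factor sets. The BMP-SMAD targets differed between these sets, with 4 of 6 higher in JGE, 0 of 6 in JGEO and 1 of 6 in JGESO cells. Each of these comparisons is of 1 library with 1 library, and differences between factor sets were not tested.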

How the data were processed

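The scRNA-seq values are UMI counts per gene and cell, deposited by the authors with a cell annotation and without normalization. The submitters' processing notes name STAR and Scanpy for these, and HISAT2 2.2.1, StringTie 2.2.1 and Trim Galore 0.6.4 for the bulk libraries, on mm10. The authors deposited bulk FPKM values in a table of 17 libraries (35976 genes) and a table of 8 (37108 genes). Peak lists and 10749 cell columns that belong to neither sample were not used here. The table holds 20695 genes.

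UMIs were summed per annotation and scaled to CPM, that is to the same total for each annotation (Python 3.11.15, pandas 2.3.3, scipy 1.17.1). Genes needed 5 CPM in any group compared, and counts under 3 were set to 3 for folds. Intervals are exact Poisson and Clopper-Pearson intervals at 95%. The size rule was tested on simulated data. Cells were thinned to 4000 UMIs for shares, and no cell was below that depth. Groups within the endothelial cells came from Scanpy 1.11.5 (2000 variable genes, 20 principal components, 15 neighbours). Scrublet called only 3 cells (0.0150%), so it did not work as a caller, and no cell was removed. The 6% with the highest scores were left out as an alternative. The 2 samples share 2 cell barcodes. Bulk differences are of log2(FPKM + 1) for genes with at least 1 FPKM in either library.

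The members, the 29 gene lists (306 genes, 305 in the table) and the rules were chosen with earlier results of these data known. Named genes are the 6 markers, list members, the 20 highest and 10 lowest by fold against the other annotations, and the 10 largest folds each way between samples, with at least 20 CPM. Predicted genes (Gm or Rik names), mitochondrial genes and ribosomal protein genes were counted and, apart from mt-Co3, not named, whereas pseudogenes with other names were. That gene was chosen after its values were seen. Promoter sequences are from RefSeq (GRCm38.p6) and gene positions from GENCODE.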

Additional observations from a re-analysis of the deposited data

Results flagged for a closer look

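Some differences between groups under the same contrast had opposite signs and were not tested, since each group is 1 sample. On the log2 scale Bambi was lower in endothelial than in intermediate cells with BMP4 (-1.36) and higher without it (0.83). Sparc, a matrix protein, was likewise at -1.44 with BMP4 and at 0.95 without. In the bulk table of 8 libraries, differences of log2(FPKM + 1) on day 7 were taken with BMP4 minus without. They were -0.24 for Kdr in JGES and 1.28 in JGEO cells, and -0.73 for Pecam1 in JGES and 1.44 in JGE cells. For Cldn5 they were -0.23 in JGESO and 2.97 in JGE cells.

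Endothelial transcripts also appeared in libraries that entered no comparison, in which fibroblasts received SALL4-WT or SALL4-delN12 by itself. They were picked out among the 6 markers because the level was at least 5 FPKM and at least 2-fold that of JGES cells on day 0. Kdr, Pecam1 and Tie1 met this rule in none of these libraries. Cdh5 was at 10.8 FPKM in SALL4-WT cells on day 1 and at 9.54 and 5.05 FPKM in SALL4-delN12 cells on days 1 and 9, against 0.499 FPKM. Cd34 was at 39.5, 6.27 and 8.73 FPKM in SALL4-WT cells on days 1, 5 and 9 and at 6.38 FPKM in SALL4-delN12 cells on day 1, against 2.69 FPKM. Cldn5 was at 7.02 FPKM in SALL4-delN12 cells on day 9, against a listed 0. In the same libraries Kdr stayed between 0.371 and 2.52 FPKM, and Lyz2, a macrophage gene, was between 137 and 698 FPKM.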

How the results depend on the processing

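The median log2 fold of the markers (5.35) was 5.61 with the mean of per-cell CPM, 5.68 when the top 6% of Scrublet scores were left out and 5.64 with thinned cells. The counts of genes higher (319) and lower (301) than in each other annotation were 511 and 553 at a minimum of 1 CPM, 157 and 118 at 20 CPM, and 175 and 41 for a 4-fold rule. Between samples the counts of genes higher (2384) and lower (435) with BMP4 were 1351 and 990 without mitochondrial and ribosomal protein genes, 887 and 1110 under median ratio scaling, and 354 and 144 for a 4-fold rule. The count of lower genes was 974 at 1 CPM and 199 at 20 CPM. Relative to the fold in intermediate cells, an alternative chosen after seeing the data, the counts were 915 and 903. The endothelial share (12.8%) was 10.8% for cells with at least 3 markers, 5.58% for such cells after thinning and 12.1% for Leiden clusters in which most cells had 3 markers. The bulk median (0.66) was 0.78 with scaled libraries. Leaving out the 43 cells led by macrophage genes or keeping only cells with at least 3 markers, both added after the data were seen for the comparison of annotations, kept the counts within 1.5 times. No replicate could be left out, since each condition is 1 sample. Pairs of bulk libraries from different days or factor sets were not treated as replicates of BMP4, so no paired fit was made. The number of UMIs limits genes under 5 CPM, and read depth of the bulk libraries is unknown.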

Other observations

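A finer view of the annotated endothelial cells (Leiden resolution 0.8, 11 groups) showed further structure. A group of 170 cells was led by Prss23, Egfl8, Sparcl1, Efna1, Dll4 and Emcn, and 94.7% of its cells had at least 3 endothelial markers at the thinned depth. A group of 180 cells was led by Ly6a, which encodes the stem cell antigen Sca-1, with Ctla2a and Hapln1, and 55.0% of its cells had at least 3 markers. A group of 114 cells led by Krt71, Wnt10a and Ptn had a median of 33351 UMIs and a median Scrublet score of 0.193, the highest of the 11 groups by both values, and 35.1% of its cells had at least 3 markers. A group of 189 cells was led by the seminal vesicle genes Svs6, Svs5 and Svs4 with Pyy, and a group of 68 cells by Sp5, Cdx1 and Notum, and 10.1% and 1.47% of their cells had at least 3 markers.

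Gata2, a factor of blood, endothelium and trophoblast, was at 77.8 CPM in BMP4+ endothelial cells and highest in placenta-like cells at 247 CPM. Of 9 measured placenta-like markers 1 was higher than in the other BMP4+ cells together and 6 were lower, with a median of -1.75 on the log2 scale. The higher one, Tfap2c, a trophoblast factor, was at 13.9 CPM in endothelial cells, 2.37 above intermediate cells on the log2 scale, against 1.03 CPM in PrECLCs, and below placenta-like cells (57.0 CPM). Of 7 measured pluripotency markers 2 were higher than in the other BMP4+ cells together (Dppa2 and Dppa4) and 4 lower (Sox2, Dppa5a, Utf1 and Tdh), with a median of -2.70. Dppa4 was at 11.6 CPM in endothelial cells against at most 2.02 CPM in the other BMP4+ annotations, and it was detected in 287 cells. Of the BMP receptors in BMP4+ endothelial cells, Acvrl1 was at 28.5 CPM, Bmpr1a at 33.2 CPM and Bmpr2 at 31.9 CPM, whereas Bmpr1b was at 0.0572 CPM.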
